A study of Mus musculus with 6 samples.

Results

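The 36 genes described here code for the factors that start and elongate protein synthesis on cytosolic ribosomes, together with the poly(A)-binding protein Pabpc1 and the translationally controlled tumour protein Tpt1. They were taken by gene symbol from a given list, which uses no measured value but was drawn up with earlier results of these data known, and all 36 had a row among the 23725 genes of the count table. The cells were 3T3-L1, a mouse embryonic fibroblast line that can be turned into adipocytes. In the EV group they were kept for 24 h with extracellular vesicles (EVs) of MLP29, a mouse liver progenitor line, at 20 µg of EV protein on average (libraries 1, 2 and 4). In the control group they received, for the same 24 h, a preparation made in the same way from medium that no cells had conditioned (libraries 1, 2 and 3). All plates were kept in medium cleared of serum vesicles, and each EV plate received a separate EV preparation. The model is 1 cell line at 1 time and 1 amount of EVs. Donor and recipient are both mouse cells, so that RNA brought in by EVs and RNA made by the fibroblasts cannot be told apart in the counts.

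Protein synthesis starts when the eIF4F complex, made of the cap-binding protein eIF4E, the scaffold eIF4G and the helicase eIF4A, attaches to the cap of an mRNA. The small ribosomal subunit, carrying eIF1, eIF1A, eIF3, eIF5 and the eIF2 complex with its initiator tRNA, then scans to the start codon. The large subunit joins with the help of eIF5B. Each elongation cycle uses eEF1A to deliver an aminoacyl-tRNA, the eEF1B subunits to recharge eEF1A with GTP, and eEF2 to move the ribosome forward. Fibroblasts in growth make these factors in large amounts. Many of their mRNAs, like those of the ribosomal proteins, begin with a C and a run of pyrimidines at the 5′ end, a tract that couples their translation to growth signals through mTOR.

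The counted reads summed to between 508599 and 665465 per library, far below the sequencing depth that the paper states, and 8404 genes had a count of 0 in all 6 libraries. Genes with a count above 0 numbered 12529 to 12877 in the control and 11624 to 12262 in the EV libraries. The 100 most counted genes held 34 to 36.1% of the counts in the control and 37.9 to 38.9% in the EV libraries. The libraries were stranded, but the strand setting of the counting is not given in the sources used here. Abundant transcripts had few counts. Of the 100 most counted genes, 83 could be matched to the annotation, and 66 of these had an exon overlapped on the other strand, where 24.8% of all matched genes did. None of the 36 translation factor genes was among those 100. Each value below is therefore the count listed under a gene's identifier, and whether it comes from that gene's own mRNA is open. Levels and changes are scaled to the counts of each library, so that a fall is a lower share of them. A change in cell number or in total RNA per cell cannot be read from these values.

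The starts of these genes were read for the pyrimidine tract, because it is the sequence feature that translation factor mRNAs are best known to share. The search took a C at the RefSeq start, on the gene's own strand, followed by at least 4 further bases that are each C or T. RefSeq promoter windows of GRCm38.p6 (the mm10 build) were found for 28 of the 36 genes, 35 windows in all. A tract at the annotated start was present in 2 of the 35 windows (5.71%), those of Eif2s3x and Eif3f, against 2.51% of 32851 windows of all genes. With the C allowed within 5 bases of the start it was present in 6 windows (17.1%), against 18.3% of all windows. The 6 genes were Eef1a1, Eif2s3x, Eif3b, Eif3f, Eif3l and Eif4g1. A window without a match says only that these letters are not at the RefSeq start. The sequences below run 5′ to 3′ on the gene's strand, 15 bases before the start and 15 from it, with the tract in capitals. The first 3 hold a tract, the pair Eif4a1 and Eif4a2 is shown because only Eif4a1 fell, and Eef2 and Tpt1 because they were among the members with the lowest p.
Eef1a1 (chr9:78481710-78481739, minus strand): gctggctccgccctCTTCCCgagggtgggg
Eif3f (chr7:108934400-108934429, plus strand): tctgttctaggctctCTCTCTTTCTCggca
Eif2s3x (chrX:94212637-94212666, minus strand): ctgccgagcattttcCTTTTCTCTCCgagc
Eif4a1 (chr11:69672409-69672438, minus strand): acaaagtaacgtcacgtcgagttgcagagc
Eif4a2 (chr16:23107453-23107482, plus strand): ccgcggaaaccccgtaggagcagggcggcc
Eef2 (chr10:81176616-81176645, plus strand): tataaaaggccgggcgttgacgtcagcggt
Tpt1 (chr14:75845241-75845270, plus strand): gtcaccgctgacgacagttccgggggagcc

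Counts under most translation factor genes were lower in the EV libraries. Of the 32 genes with enough counts for testing, 22 fell (68.8%) at the threshold used (Benjamini-Hochberg adjusted p of 0.05, edgeR), against 14.4% of all 5066 genes tested. None rose in that test, against 7.68% of all genes. Eif4a2 and Eif5b were higher at an unadjusted p of 0.05, and the Wald test of DESeq2 called no member higher, against 4.34% of all genes. The median log2 fold change (EV over control) of the 32 genes was -0.79, and that of all genes tested was 0.014. A negative log2 fold change was found for 30 of the 32 genes, and it was -1 or lower, a fold of 0.5 or less, for 11 of them. The filter bears on these counts. Eif1, Eif3f, Eif3g, Eif3l, Eif3m, Eif4g3 and Eif4h reached its minimum in the control libraries but not in every EV library, so that they entered the test through the group in which they were higher. Of the 25 members that reached it in every library, 15 fell (60%), against 11.3% of the 3615 such genes, with medians of -0.60 and 0.11. DESeq2 called 14 of the 22 genes lower, against 5.76% of all genes. It did not call Eef1d, Eif1ax, Eif3b, Eif3c, Eif3l, Eif4g3, Eif4h and Eif5a, with DESeq2 adjusted p between 0.0582 and 0.21. Scaled by total library size alone instead of TMM, 26 members were lower and the median of all genes moved to -0.123, and the split of all calls moved from 732 lower and 389 higher to 970 lower and 90 higher. The plot of log2 fold changes shows the order of the 32 genes, from Eif3m at -1.98 to Eif4a2 at 0.29.

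**Figure D1:**
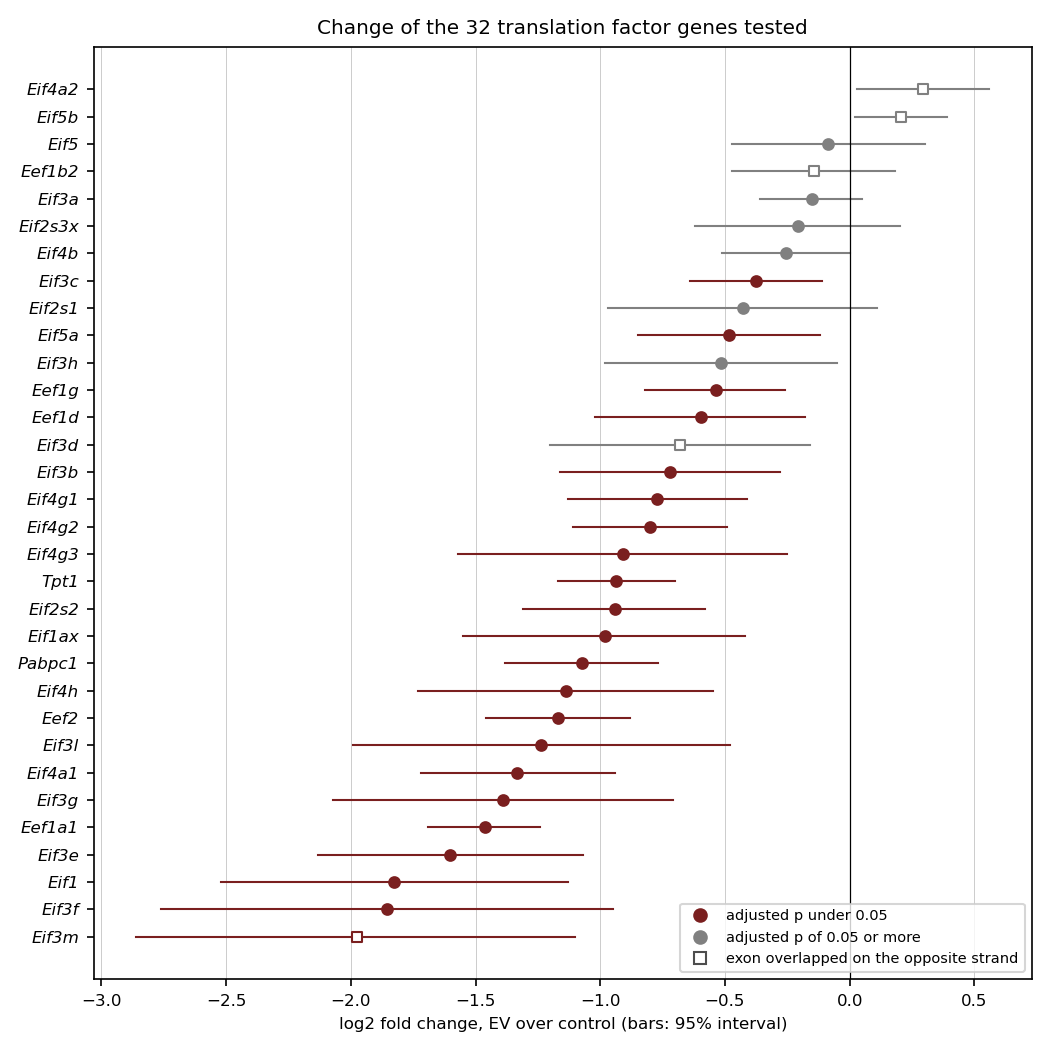
Log2 fold change (EV over control) of the 32 translation factor genes tested, one gene per line, with the 95% interval as a bar. Red marks an adjusted p under 0.05, grey the 10 genes not called, and open squares the genes with an exon overlapped on the opposite strand. The intervals of 24 genes lie wholly below 0, and those of Eif4a2 and Eif5b wholly above it.

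The members together took 0.741, 0.781 and 0.651% of the counts of control libraries 1, 2 and 3, and 0.424, 0.477 and 0.475% of those of EV libraries 1, 2 and 4. The group means were 0.725 ± 0.0667% (SD, n = 3) and 0.458 ± 0.0302% (SD, n = 3), and the groups did not overlap. With 3 against 3 libraries no exact permutation test can give a two-sided p under 0.1, so none was run on this share. Eef1a1 was the most counted member in the control libraries, with 18.9% of the members' counts on average, and Eif5b in the EV libraries, with 23.4%. Without Eef1a1 the shares were 0.587% in the control and 0.413% in the EV libraries.

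The elongation factors held the member with the lowest p. Eef1a1, which delivers aminoacyl-tRNAs to the ribosome, had 725, 975 and 792 counts in the controls and 178, 284 and 327 after EVs. The highest EV library lay below the lowest control library by a wide margin. The mean level was 1390 ± 179 normalized CPM (SD, n = 3) in the control and 501 ± 125 (SD, n = 3) in the EV group, a log2 fold change of -1.46 (SE 0.11, edgeR adjusted p = 1.12e-15). The Wald test of DESeq2 gave -1.45 with a larger SE of 0.231 (DESeq2 adjusted p = 8.26e-08). Of the 3 subunits of eEF1B, the complex that recharges eEF1A, 2 fell. Eef1g, its scaffold subunit, fell from 140, 154 and 145 counts to 82, 87 and 94 (log2 fold change -0.54, SE 0.14, edgeR adjusted p = 0.00414). Without EV library 2 its adjusted p was 0.0504. It was 0.0565 without a filter on low counts, and 0.082 when only genes without an exon overlap on the opposite strand were fitted. Eef1d, an exchange factor subunit, had 46, 56 and 53 counts against 23, 32 and 34, a log2 fold change of -0.60 (SE 0.21, edgeR adjusted p = 0.0319). Its call was lost without control library 1 or 2 or any 1 of the EV libraries, with adjusted p between 0.0529 and 0.136. Eef1b2, the other exchange factor subunit, did not pass the test. It had 82, 86 and 91 counts in the control and 54, 85 and 65 in the EV libraries, with overlapping groups and a log2 fold change of -0.15 (95% interval -0.47 to 0.18). Within the eEF1 complex the count ratio of Eef1a1 to Eef1b2 was 8.84, 11.3 and 8.70 in the controls and 3.30, 3.34 and 5.03 after EVs. This pair was chosen after its values were seen.

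Eef2, the GTPase that moves the ribosome along the mRNA, fell from 190, 229 and 186 counts to 54, 82 and 98. The groups did not overlap, and EV library 1 was the lowest. The log2 fold change was -1.17 (SE 0.15, edgeR adjusted p = 1.08e-08), a fold of 0.444. Eef1a1 and Eef2 kept their call in each of the 15 alternative fits, with log2 fold changes between -1.61 and -1.26 and between -1.33 and -0.99 when 1 library was left out.

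The factors of scanning and start codon choice were split. Eif1, which keeps the scanning ribosome in an open state, had 27, 53 and 19 counts in the controls and 5, 8 and 11 after EVs. Control library 2 stood well above the other control libraries, and the groups did not overlap. Eif1 passed the filter through the control libraries alone. Its log2 fold change was -1.83 (SE 0.35, edgeR adjusted p = 8.41e-05), and -1.37 without control library 2. Eif1ax, which codes for eIF1A, fell from 25, 36 and 28 counts to 11, 17 and 11 (log2 fold change -0.98, SE 0.28, edgeR adjusted p = 0.00918), with adjusted p of 0.0652 without control library 2 and 0.0618 without EV library 4. Eif5, which triggers GTP hydrolysis by eIF2, showed no detectable difference, with 64, 49 and 59 counts against 50, 55 and 36 and a log2 fold change of -0.09 (95% interval -0.47 to 0.30). The sign of that value changed without control library 1 (0.044) and without EV library 4 (0.12). Eif5b, which joins the subunits, was the 1 tested member with every EV library above every control library, in normalized CPM, where 17.9% of all genes tested showed this. It had 571, 582 and 671 counts in the controls and 541, 653 and 634 after EVs. The levels were 1020 ± 60.6 and 1170 ± 40.0 normalized CPM (SD, n = 3 each), with a log2 fold change of 0.20 and an edgeR adjusted p of 0.0973. Because Eif5b outweighs the other 3 genes, the sum over this group was 1220 ± 48.9 normalized CPM in the control and 1300 ± 23.5 in the EV group (SD, n = 3 each), although 2 of its 4 genes fell.

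Of the 3 subunits of eIF2, which brings the initiator tRNA, 1 fell. Eif2s2, the beta subunit, fell from 74, 90 and 86 counts to 30, 39 and 44, with groups far apart. Its log2 fold change was -0.94 (SE 0.18, edgeR adjusted p = 0.000113). Eif2s1, the alpha subunit whose phosphorylation slows initiation under stress, had 25, 33 and 24 counts against 14, 23 and 16, and in normalized CPM its groups overlapped (log2 fold change -0.43, 95% interval -0.97 to 0.11). Eif2s3x, the X-linked gamma subunit, had 53, 80 and 41 counts against 38, 51 and 42, and in normalized CPM the EV libraries lay inside the range of the control libraries. Its log2 fold change was -0.21 (95% interval -0.62 to 0.20), and 0.037 without control library 2. The intervals of Eif2s1 and Eif2s3x reach well below 0, so that a fall of the size seen in other members remains possible for both at this depth. A difference between the subunits was not tested.

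The eIF3 complex, the large scaffold between the small subunit and the mRNA, gave 7 falling genes among the 10 of its 12 subunits that could be tested. This was 70%, against 14.4% of all genes tested, with a median log2 fold change of -0.98. Eif3e had the lowest p of them and fell from 34, 50 and 46 counts to 11, 15 and 11 (log2 fold change -1.60, SE 0.26, edgeR adjusted p = 6.71e-06). Eif3g had 19, 24 and 24 counts against 6, 7 and 9 (log2 fold change -1.39, SE 0.34, edgeR adjusted p = 0.00214). In both genes each EV library had fewer counts than each control library. Eif3m had 11, 19 and 21 counts against 2, 2 and 7, the lowest log2 fold change of all members at -1.98 (SE 0.44, edgeR adjusted p = 0.000771), and -2.77 without EV library 4. Eif3f had 12, 25 and 14 counts in the controls and 0, 5 and 7 after EVs. Its log2 fold change was -1.86 (SE 0.45, edgeR adjusted p = 0.00219), with -2.47 without EV library 4 and an adjusted p of 0.0774 without control library 2. Eif3f and Eif3m had the largest standard errors of the 32 members tested. Eif3f, Eif3g, Eif3l and Eif3m passed the filter through the control libraries alone. Of the other 6 subunits tested, Eif3b, Eif3c and Eif3e fell.

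The most counted subunits, Eif3a and Eif3c, had the log2 fold changes nearest 0 of the 10. Eif3a, the largest subunit, had 504, 571 and 467 counts against 338, 501 and 377. Its groups overlapped in normalized CPM, 863 ± 115 against 773 ± 94.7 (SD, n = 3 each), and its log2 fold change was -0.15 (95% interval -0.36 to 0.05). It was -0.29 with an edgeR adjusted p of 0.0295 without control library 3. Eif3c, another core subunit, fell from 158, 175 and 162 counts to 96, 117 and 119 (log2 fold change -0.38, SE 0.13, edgeR adjusted p = 0.0323). Its call was lost without control library 1 or 2 or any 1 of the EV libraries, with adjusted p between 0.0816 and 0.133. Eif3b, the RNA-binding core subunit, had 58, 52 and 51 counts against 15, 34 and 36, with EV library 1 far below the others. Its log2 fold change was -0.72 (SE 0.22, edgeR adjusted p = 0.0146), and the call was lost without control library 1 (adjusted p = 0.0931) or EV library 1 (0.158). Eif3l fell from 13, 23 and 16 counts to 4, 9 and 6 (log2 fold change -1.24, SE 0.38, edgeR adjusted p = 0.0140), and was not called without control library 2, EV library 1 or EV library 4, with adjusted p between 0.0615 and 0.118.

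Eif3d and Eif3h did not pass the test although their groups did not overlap. Eif3d, a cap-binding subunit, had 26, 39 and 31 counts against 13, 23 and 16, a log2 fold change of -0.68 with an edgeR adjusted p of 0.0523, and of 0.0459 without control library 3. Eif3h had 34, 40 and 43 counts against 17, 29 and 25, a log2 fold change of -0.52 and an edgeR adjusted p of 0.0970. Eif3i and Eif3k had too few counts for the test. Eif3i had 8, 9 and 9 counts in the control and 2, 4 and 3 in the EV libraries, and Eif3k 14, 9 and 8 against 1, 2 and 2. In both, every EV library lay below every control library. Per kb of exon, the control level of the 12 subunits ran from 3.92 CPM for Eif3i to 98.8 for Eif3a, with a median of 10.8. The exon length is the union over all annotated transcripts of a gene, so that these levels also depend on the annotation. Unequal amounts of the subunits' mRNAs are not read from them.

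Of the eIF4 group, which binds the cap and unwinds the mRNA, 5 of the 7 genes tested fell, against 14.4% of all genes tested. The median log2 fold change was -0.80. Of the 5, Eif4g3 and Eif4h entered the test through the control libraries alone, the group in which they were higher, which bears on this count and median. The eIF4A helicases did not share a call. Eif4a1 fell from 73, 93 and 78 counts to 24, 30 and 30, with a log2 fold change of -1.33 (SE 0.20, edgeR adjusted p = 5.3e-07). Eif4a2 had 122, 149 and 137 counts against 127, 185 and 124, the highest log2 fold change of all members, 0.29 (95% interval 0.03 to 0.56, edgeR adjusted p = 0.101). Its groups overlapped, and without EV library 4 it passed the test (log2 fold change 0.44, adjusted p = 0.0398). The ratio of Eif4a1 to Eif4a2 counts was 0.598, 0.624 and 0.569 in the controls and 0.189, 0.162 and 0.242 after EVs, means of 0.597 ± 0.0274 and 0.198 ± 0.0406 (SD, n = 3 each). The ratio does not depend on the scaling of the libraries. It was computed after the values were seen and is given as a description.

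The eIF4G scaffolds fell together. Eif4g1 had 66, 90 and 90 counts against 42, 45 and 38 (log2 fold change -0.77, SE 0.18, edgeR adjusted p = 0.00126). Eif4g2, a relative that lacks the eIF4E-binding site, had 106, 127 and 122 counts against 48, 66 and 63 (log2 fold change -0.80, SE 0.16, edgeR adjusted p = 0.000117). Their groups were well apart, and both kept their call in each alternative fit. Eif4g3 had 20, 17 and 26 counts against 7, 15 and 7 (log2 fold change -0.91, SE 0.33, edgeR adjusted p = 0.0387), and was not called without control library 1 or 3 or EV library 1 or 4, with adjusted p between 0.0948 and 0.189. Eif4h, a helper of the helicase, fell from 23, 30 and 31 counts to 8, 11 and 14 (log2 fold change -1.14, SE 0.30, edgeR adjusted p = 0.00404). It was not called by DESeq2 (adjusted p = 0.0582). Eif4b, the other helper, had 162, 201 and 191 counts against 111, 169 and 124. In normalized CPM its groups just failed to touch, at 308 ± 16.2 against 257 ± 35.6 (SD, n = 3 each), and it did not pass the test (log2 fold change -0.26, edgeR adjusted p = 0.136). The cap-binding protein itself, Eif4e, had only 7, 11 and 16 counts against 3, 9 and 5 and was not tested.

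Outside these complexes, Pabpc1, which binds the poly(A) tail and contacts eIF4G, fell from 149, 166 and 161 counts to 46, 87 and 64. EV library 1 was again the lowest, and the groups did not overlap. The log2 fold change was -1.07 (SE 0.15, edgeR adjusted p = 1.8e-07). Tpt1, a growth-related protein whose mRNA is a classic target of translational control, fell from 275, 349 and 312 counts to 117, 159 and 150, and its libraries were tight within each group. Its level was 521 ± 41.7 normalized CPM in the control and 272 ± 21.5 in the EV group (SD, n = 3 each), with a log2 fold change of -0.93 (SE 0.12, edgeR adjusted p = 1.22e-08). Eif5a, which helps the ribosome through difficult peptide bonds, had 69, 77 and 74 counts against 31, 54 and 52, a log2 fold change of -0.48 (SE 0.18) just past the threshold (edgeR adjusted p = 0.0469). It was called without control library 3 (adjusted p = 0.0427) but not without any 1 of the other 5 libraries, with adjusted p between 0.0684 and 0.292. Eif6, which holds the large subunit apart, had 15, 15 and 8 counts against 5, 5 and 7 and was not tested.

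Over all 36 genes, tested or not, 27 had every EV library below every control library. Among the 32 tested this was 25, against 21.5% of all genes tested. A share over the whole count table was not computed. The 25 include Eif1, Eif3f, Eif3g, Eif3l, Eif3m, Eif4g3 and Eif4h, which entered the test through the control libraries alone. These 7 genes are also in the medians over the 32 members below. EV library 1 was the lowest EV library for 26 of the 36 genes, and control library 3 the lowest control library for 23. The median log2 ratio to the control mean over the 32 tested members was -1.01 in EV library 1, -0.69 in EV library 2 and -0.74 in EV library 4, while over all genes tested it was between -0.01 and 0.01 in these libraries. Without EV library 1 the median log2 fold change of the members was -0.72. In that fit 16 of 34 tested were called lower, against 8.86% of all genes.

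**Figure D2:**
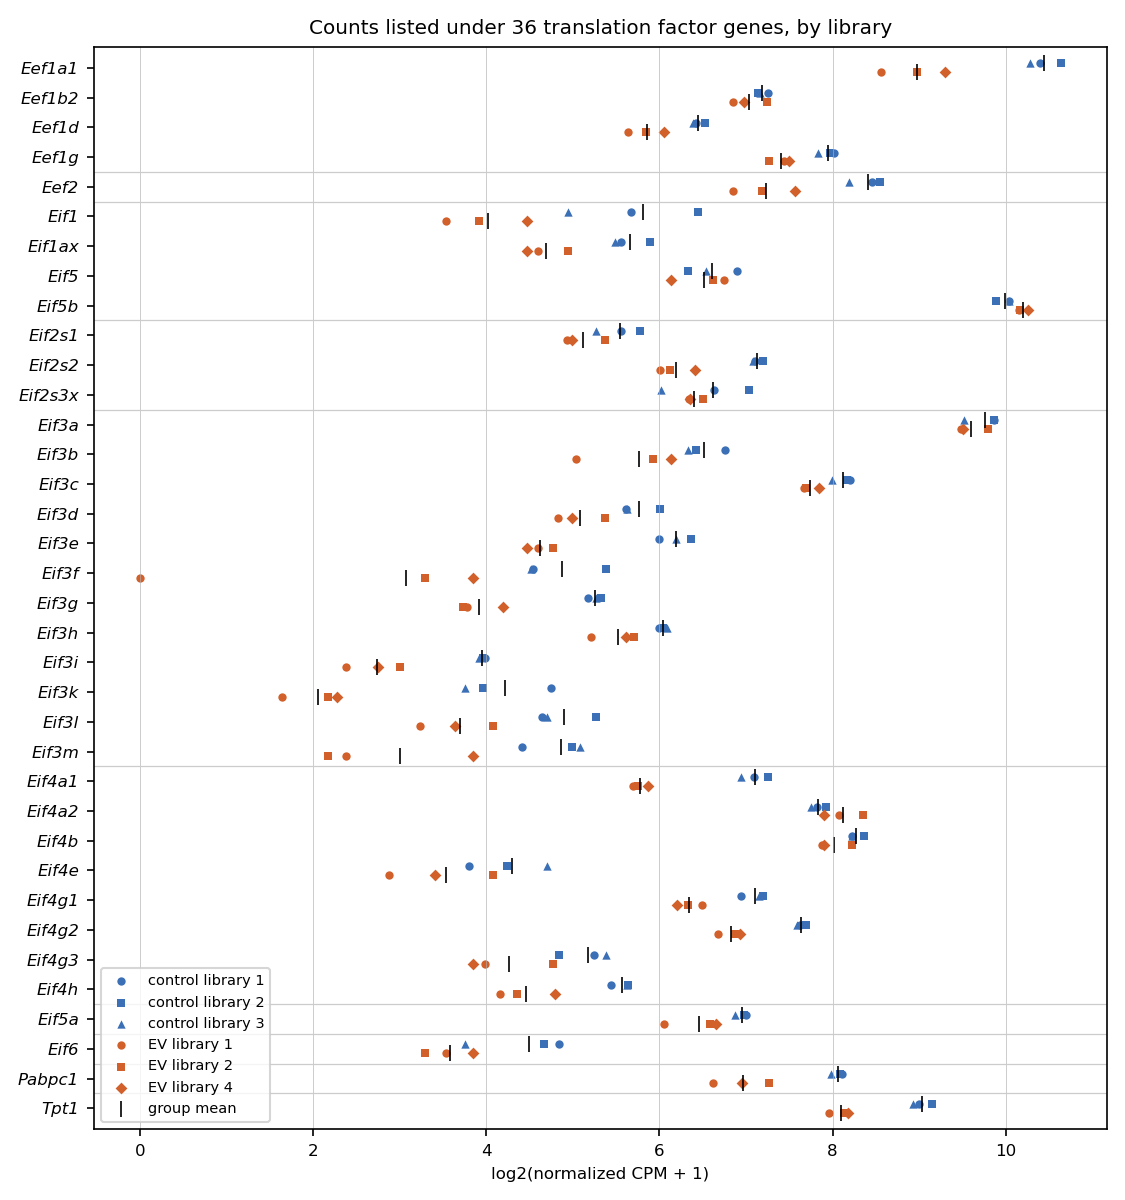
Level of each of the 36 genes in each library, as log2 of normalized CPM plus 1, grouped by role. Blue marks are control libraries 1 to 3, orange marks EV libraries 1, 2 and 4, and the upright bar is the log2 of each group's mean CPM plus 1. For 27 genes the orange marks lie wholly left of the blue ones. Eif3f is at 0 in EV library 1.

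Per kb of exon, again with the union over all annotated transcripts, the highest control levels were those of Eef1a1 (558 CPM per kb), Tpt1 (219), Eif5b (105), Eef2 (102) and Eif3a (98.8). In the EV libraries the same measure was 201 for Eef1a1, 120 for Eif5b and 114 for Tpt1. The lowest control levels were those of Eif4e (3.10), Eif4g3 (3.17) and Eif3i (3.92). Of the genes named with the highest control levels, Eef1a1, Tpt1 and Eef2 fell, and Eif5b and Eif3a were not called. No relation between level and change is read from the plot of both. At its low end, genes that passed the filter through the control libraries alone were more likely to be lower in the EV libraries.

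**Figure D3:**
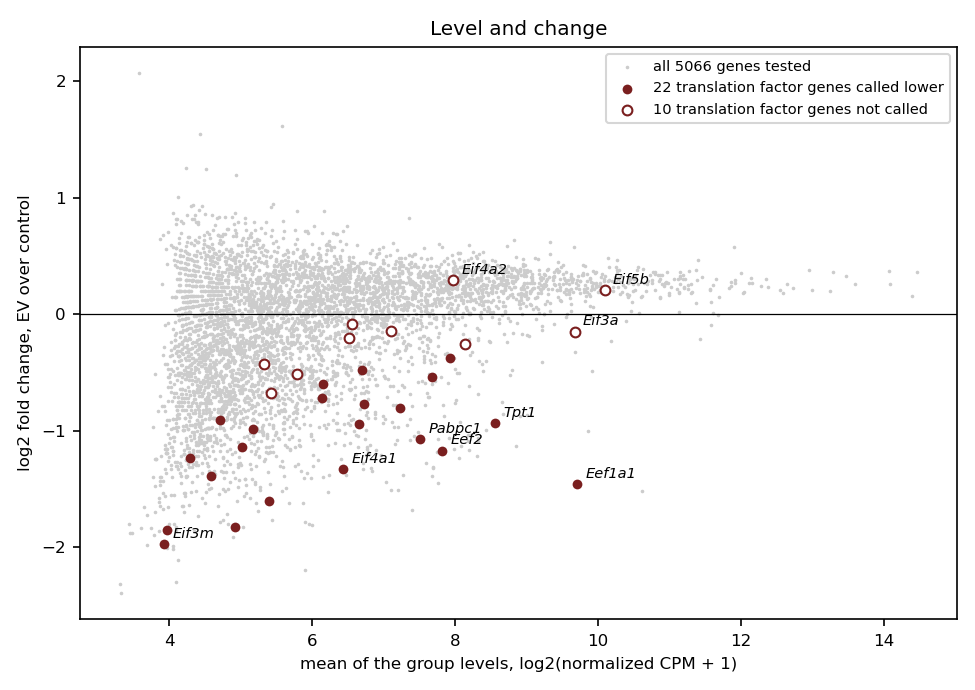
Log2 fold change (EV over control) against the mean level of the 2 groups, as log2 of normalized CPM plus 1, for all 5066 genes tested (grey) and the members (filled red for the 22 that fell, open for the 10 not called). Eef1a1, at -1.46, lies below most grey genes of like level.

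Since the strand of the counts is open, the members were sorted by whether an exon of another gene overlaps theirs on the opposite strand in the GENCODE vM21 annotation (at least 1 base). This was so for Eef1b2, Eif3d, Eif3m, Eif4a2, Eif5b and Eif6. Of the 5 of these that were tested, 1 fell, and their median log2 fold change was -0.15. Of the 27 tested members without such an overlap, 21 fell (77.8%), with a median of -0.91. Eif3m, the 1 that fell with an overlap, entered the test through the control libraries alone. So did Eif1, Eif3f, Eif3g, Eif3l, Eif4g3 and Eif4h without one, which bears on these counts and medians. All genes tested differed in the same direction between these classes. With an overlap 9.49% were lower and 12.4% higher (median 0.13), and without one 19.9% were lower and 2.55% higher (median -0.21). When only genes without an overlap were fitted, 15 of the 27 members were called lower, against 12.2% of the genes in that fit, and their median was -0.73. The tested members with a positive log2 fold change, Eif4a2 and Eif5b, are both overlapped, and the part of this in their values was not tested.

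The overlapping genes with a row in the count table were looked at in turn. Gm17638, which shares 2151 bases with Eif3d, and Gm16098, which shares 138 with Eif6, could not be matched to a row. Their part in the values of Eif3d and Eif6 was not tested. Rev1, a DNA polymerase gene, shares 1643 bases with Eif5b and had between 50 and 69 counts per library, 367 in all against 3652 for Eif5b. Rfc4, a replication factor gene, shares 194 bases with Eif4a2 and had 0 to 4 counts per library. Ccdc73 shares 82 bases with Eif3m and had 29.2 times its counts, between 263 and 392 per library. Ccdc73 rose (log2 fold change 0.30, SE 0.11, edgeR adjusted p = 0.0422) while Eif3m fell. Ndufs1, a respiratory chain gene, shares 9 bases with Eef1b2 and had 15 to 27 counts per library. Some members also share near-identical stretches with annotated transcripts of genes at other loci. Reads could be split or lost between them, and the values of these members are uncertain to that degree. Matches of at least 50 bases at 98% identity or more were found for 14 of the 36 genes. They were at 7 other loci for Eif1, 5 for Eif6, 3 for Eef1a1 and 2 for Tpt1. Those of Eif6, in Foxl1, Lztr1, Hook3, Borcs7 and Smpd1, were at most 67 bases long, and 0 were in a pseudogene. A single other locus was found for Eef1b2, Eef1g, Eif2s2, Eif2s3x, Eif3m, Eif4a1, Eif4a2, Eif4e, Eif5a and Pabpc1, the longest matches in bases being those of Eef1g (1342), Eif2s2 (992), Eif2s3x (1350), Eif3m (1125) and Eif4a1 (1218).

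**Figure D4:**
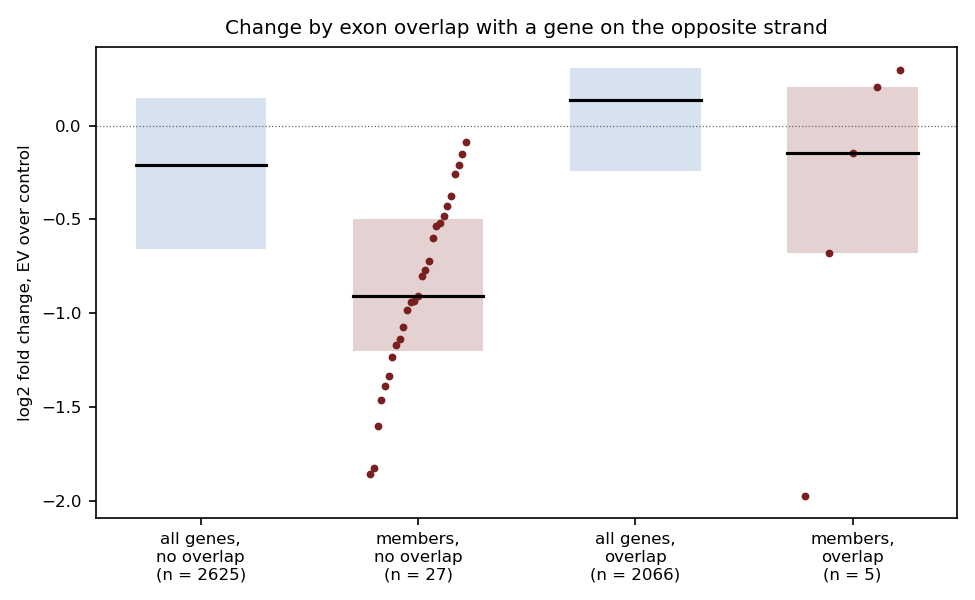
Log2 fold change (EV over control) for all genes tested (blue) and for members (red), split by whether an exon is overlapped on the opposite strand. Lines are medians, boxes the middle 50% of genes and points single members, spread sideways in order of value. Medians are -0.21 and -0.91 without an overlap, and 0.13 and -0.15 with one. Genes that passed the filter through the control libraries alone are included.

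Other genes of protein synthesis were read in the same fit. Of 76 genes in 6 lists, 43 were tested, of which 10 fell (23.3%, against 14.4% of all genes) and 4 rose (9.3%, against 7.68%). With the total library size 14 were lower and 1 higher, and with DESeq2 2 were lower and 1 higher. None of the 8 further initiation factors tested passed edgeR's test, with 1 lower at an unadjusted p of 0.05 and 0 called by DESeq2. The lowest adjusted p values in that list were those of Pabpc4 (0.0763), a relative of Pabpc1, Denr (0.157) and Larp1 (0.172), which binds pyrimidine tract mRNAs. None of the 5 tested eIF2B subunits and regulators of eIF2 passed, with 1 lower at an unadjusted p of 0.05 and 0 by DESeq2. The eIF2 kinase Eif2ak4 had a log2 fold change of -0.62 and an adjusted p of 0.128. Among repressors, Eif4ebp1, which sequesters eIF4E, fell (log2 fold change -0.97, SE 0.34, edgeR adjusted p = 0.0324), and was the 1 gene of 5 to do so, with DESeq2 calling 0. Paip2, which blocks Pabpc1, was next with an adjusted p of 0.0639. None of the 3 other elongation, recycling and termination factors passed, with 1 lower at an unadjusted p of 0.05 and 0 by DESeq2.

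The list of aminoacyl-tRNA synthetases, which charge the tRNAs that eEF1A carries, gave 9 falling (50%) and 2 rising genes (11.1%) among 18 tested, with a median of -0.60. Of all genes tested, 14.4% fell and 7.68% rose. The 2 that rose were Mars1 and Aimp2, and DESeq2 called 0 higher. The lowest adjusted p values were those of Eprs (log2 fold change -0.94, edgeR adjusted p = 0.000264), Kars (-1.18, 0.000928) and Cars (-1.04, 0.00418). DESeq2 called 2 of these genes lower. In the mitochondrial translation list, where no gene fell, 2 of 4 tested rose, Gfm2 (log2 fold change 0.57, edgeR adjusted p = 8.85e-06) and Mtif3 (0.23, 0.0469). DESeq2 called 1 of these genes, and the groups of Mtif3 overlapped. All 4 of the genes that rose in the 6 lists had an exon overlapped on the opposite strand, and 2 of the 10 that fell did, where 18 of the 43 tested had one. Among 84 tested ribosomal protein genes, taken by symbol, 75 fell (89.3%) and 1 rose (1.19%), and the median log2 fold change was -1.13. DESeq2 called 63 lower and 1 higher. The symbol rule also takes in like-named genes such as Rpl7l1 and Rps23rg1. The gene that rose was Rps23rg1 (log2 fold change 0.37), which has an exon overlapped on the opposite strand, while Rps23 itself fell (-1.21).

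The markers of the cell type moved with the members. Of 11 fibroblast markers tested, 8 fell (72.7%, against 14.4% of all genes tested), with a median log2 fold change of -1.08. The summed level of the markers was between 2460 and 2860 normalized CPM in the control and between 1060 and 1350 in the EV libraries. Of the 12 markers listed, Lum was at 0 in all libraries. Fn1, with 391, 440 and 391 counts against 134, 177 and 174, was the most counted. Most markers of the liver and epithelial cells from which the EVs came were at or near 0. Alb, Afp, Ttr, Hnf4a, Krt8, Krt18, Krt19 and Epcam had no count in any library, and the summed level of the 12 markers was 55.4 to 92.7 normalized CPM in the control and 34.5 to 42.3 in the EV libraries. Most of that sum came from Spp1 and Sox9. Sox9 had 13, 10 and 9 counts against 10, 9 and 9 and was not tested. Spp1, which fibroblasts can also express, fell from 17, 45 and 39 counts to 7, 9 and 7 (log2 fold change -1.91, SE 0.33, edgeR adjusted p = 1.49e-05). The part of the fibroblast markers' change in that of the translation factor genes was not tested.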

How the data were processed

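mRNA of 3T3-L1 cells was measured in 6 libraries (3 control, 3 EV), each from a separate plate, made with a stranded kit and sequenced from 1 end. Alignment to mm10 (GRCm38) was done by the authors with STAR and counting with Rsubread. The deposited values are raw counts by gene, whole numbers with no normalization. The submitters' processing notes also name FastQC and DESeq2. Tool versions, annotation release, strand setting and the treatment of reads with several matches are not given in the sources used here.

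Members were matched by RefSeq symbol to Entrez identifier. The members, lists and roles were chosen with earlier results of these data known. The whole table was fitted in R 4.3.3 with the quasi-likelihood test of edgeR 4.0.16 (glmQLFit, glmQLFTest) after filterByExpr, TMM scaling and estimateDisp, without covariates. Benjamini-Hochberg adjustment was over 5066 genes, with a threshold of 0.05. filterByExpr used its default of 10 counts in the library of median size. Normalized CPM use TMM factors, intervals are 95% from the moderated degrees of freedom, and SE is the log2 fold change over the root of F. Overlaps were taken from GENCODE vM21 (21033 of 23725 rows matched) with bedtools 2.31.1. Near-identical stretches were searched among its transcripts with blastn 2.17.0, and start windows were taken from RefSeq GRCm38.p6.

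The named genes were all members, the up to 3 tested genes of lowest adjusted p in each wider list, overlapping genes with counts 10 times apart or past the threshold, and markers. Rfc4 and Ndufs1 were named as the remaining overlapping genes with counts, and Gm17638 and Gm16098 as those without a matched row. Alternatives were DESeq2 1.42.0 size factors or total library size, its Wald test, no filter, at least 10 counts in every library, robust and legacy fits, the replicate block, only genes without an overlap, and each library left out. The legacy fit and the share without Eef1a1 were added after the data were seen. In simulated data for this comparison with 5085 genes, edgeR recovered 74.9% of 191 changed genes with 6.54% of its calls false. Of those changed 1.5-fold it recovered 42.4%. The changed genes were drawn from those with at least 10 expected counts in the smallest library. Directions were random and the same dispersion was set for every gene, so these rates need not hold for the members. No 2 replicates agreed within sampling noise (chi-square over its degrees of freedom, 1.22 to 2.04). P-values rest on the spread between plates of 1 line, with the variance largely pooled across genes. The moderated degrees of freedom were 59.7 for Eef1a1 and close to that for the other tested members. The p of a gene is therefore not a measure of its own spread alone.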

Additional observations from a re-analysis of the deposited data

How the results depend on the processing

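Members called lower were 22 (14.4%), with the share of all genes tested in the same fit that were lower in brackets here and below. They were 21 with DESeq2 size factors (14%), 26 with the total library size (19.1%) and 16 without a filter (3.21%). With at least 10 counts in every library they were 16 of 25 tested (13.5%). The robust and the legacy fits gave 22 (14.7 and 14.3%). When only genes without an overlap were fitted they were 15 of 27 (12.2%), and with the DESeq2 Wald test 14 (5.76%). With 1 library left out they were between 16 and 24 (7.93 to 15.5%). Without EV library 4, Eif4a2 was called higher, so that 17 members passed in either direction. The median log2 fold change of the members stayed between -0.87 and -0.72 with 1 library left out and moved to -0.92 with the total library size.

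The count of all genes called, 1121, was 632 with at least 10 counts in every library, 512 with the DESeq2 Wald test and 541 for genes without an overlap, where fewer genes were tested. It was 732 without control library 1, 489 without control library 2, and between 489 and 1215 over the libraries left out. The 14 wider translation genes called became 9 without a filter, 9 with at least 10 counts, 3 with the DESeq2 Wald test, 4 without overlapped genes, 9 without control library 1 and 6 without control library 2 (6 to 14 over the libraries left out). The share of counts under the members was 1.11% in the control and 0.744% in the EV libraries when the 100 most counted genes were taken out of the total, 0.587% and 0.413% without Eef1a1, and 0.696 to 0.761% and 0.449 to 0.476% with 1 library left out.

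Of 468 single-member values over the alternatives, 403 kept direction and side of the threshold, 51 lost the threshold, 8 gained it and 6 changed sign. The sign changed for Eif5 under the replicate block (0.053), without overlapped genes (0.092), with control library 1 left out (0.044) and with EV library 4 left out (0.12, the highest with 1 library left out, the lowest being -0.24), for Eif2s3x without control library 2 (0.037, with a lowest value of -0.48) and for Eif3a without overlapped genes (0.029). None of these was called in either fit. A call in every alternative that gave a value was found for 12 members. Where no cause follows from the construction of an alternative, the cause was not tested. Control and EV libraries share the numbers 1 and 2 but not a known plate or day, and their deviations correlated by 0.071 and 0.063. With the replicate block 21 members were called lower, against 13.9% of all genes. Their median was -0.81 (1119 of all genes and 17 wider genes called). Eif4g3 was the member not called there (log2 fold change -0.60, adjusted p = 0.298). At these depths 4 members could not be tested, and edgeR recovered fewer than 50% of simulated 1.5-fold changes, so that members without a call may still differ.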
